A study of Mus musculus with 8 samples.

Results

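The insulin-like growth factor (IGF) family was examined in ventricles of mouse embryos at embryonic day 15.5, as 10 genes of the 53465 in the deposited count table. These were the ligands Igf1 and Igf2, the receptors Igf1r and Igf2r, and the binding proteins Igfbp2, Igfbp3, Igfbp4, Igfbp5, Igfbp6 and Igfbp7, each found by its Ensembl identifier. RNA-seq was available for 4 libraries of genotype WT and 4 of genotype Nrg-1flox;Cdh5-CreERT2, with each replicate described as 1 ventricle. In the latter line, floxed sequence of Nrg1, a gene for a secreted growth factor, is meant to be cut out by a tamoxifen-inducible Cre recombinase that is driven by the endothelial Cdh5 promoter. The labels give neither the dose and time of tamoxifen nor the genotype of the WT embryos beyond WT. The family was chosen by the Igfbp5 difference between these same groups, measured as its level in these libraries, and the question was whether its relatives were lower too. The Igfbp5 difference is therefore a description and is given without a test. The other 9 members were taken by name and are given with theirs. The member list was chosen with earlier results of these data known.

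IGF1 and IGF2 are small secreted hormones that drive growth of the embryo. They act mainly through IGF1R, a receptor tyrosine kinase, whereas IGF2R takes up IGF2 and delivers it to lysosomes. The binding proteins hold the ligands outside the cell, where they can lengthen their life, withhold them from the receptor, or release them when cut by proteases. IGFBP7 binds the ligands only weakly.

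Nrg1 itself measured 5.46, 4.64, 4.08 and 5.32 CPM (CPM are counts relative to the library total, scaled with TMM factors) in WT libraries 1 to 4. In libraries 1 to 4 labelled Nrg-1flox;Cdh5-CreERT2 it was at 6.83, 6.33, 6.16 and 5.36 CPM. It was not lower in the group labelled as deleted (log2 fold change 0.34, SE 0.12, edgeR's adjusted p = 0.311). The group is therefore named Nrg-1flox-labelled, and every direction given is that of the labels. A count per gene does not show which exons were read. Library totals ranged from 16761763 to 24144272 expected counts, and 7 of the 8 libraries held both Xist, an RNA of female cells, and Y-linked RNA. An embryo of a single sex would not hold both, so this does not match the description of 1 ventricle per replicate. How it arose was not tested, and n = 4 counts libraries, which may not be single embryos. Nrg-1flox-labelled library 4 was the shallowest and had the least Xist (103 CPM, against 263 to 327) and the most Y-linked RNA (120 CPM, against 42.9 to 68.3) of its group. WT libraries 1 to 4 held Xist at 134, 206, 140 and 0.176 CPM and Y-linked RNA at 115, 69.3, 122 and 171 CPM. Sex-linked RNA thus differed between the groups, and library 4 of the second group was closer to WT libraries 1 and 3 than to its own group. Ventricular cardiomyocyte markers such as Myl2, Myh7 and Irx4 were present in each library, and the summed list was at 45200 to 48800 CPM in the WT group and 44300 to 49400 CPM in Nrg-1flox-labelled libraries. The hepatocyte markers Alb and Afp reached at most 23 and 14 counts in any library. Trf, the only 1 of the 8 listed hepatocyte markers that was tested, held 318 to 441 counts per library. Its log2 fold change was 0.25 (adjusted p = 0.314), and the summed list was at 117% of WT.

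Igfbp5 (ENSMUSG00000026185) and Igfbp2 (ENSMUSG00000039323) are neighbours on chromosome 1, on opposite strands and with their 3′ ends 5458 bp apart (GRCm38, GENCODE M21). Igfbp5 spans 72857932 to 72874884 on the minus strand, and Igfbp2 spans 72824503 to 72852474 on the plus strand. Their promoter windows are shown because these adjacent relatives differed in level and in how the groups compared. Each window holds 250 bases before and 50 bases from the RefSeq start on (GRCm38.p6), 5′ to 3′ on the strand of the gene. Capitals mark CANNTG and GGGCGG, searched on both strands together with TATAAA, which neither window holds.
Igfbp5, chr1:72874816-72875115, minus strand: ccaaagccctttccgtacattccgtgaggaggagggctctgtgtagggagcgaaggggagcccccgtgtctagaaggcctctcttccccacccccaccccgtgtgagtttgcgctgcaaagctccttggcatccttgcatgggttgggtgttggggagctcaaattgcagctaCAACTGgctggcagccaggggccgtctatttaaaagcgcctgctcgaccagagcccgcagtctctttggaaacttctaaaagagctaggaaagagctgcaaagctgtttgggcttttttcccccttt
Igfbp2, chr1:72824230-72824529, plus strand: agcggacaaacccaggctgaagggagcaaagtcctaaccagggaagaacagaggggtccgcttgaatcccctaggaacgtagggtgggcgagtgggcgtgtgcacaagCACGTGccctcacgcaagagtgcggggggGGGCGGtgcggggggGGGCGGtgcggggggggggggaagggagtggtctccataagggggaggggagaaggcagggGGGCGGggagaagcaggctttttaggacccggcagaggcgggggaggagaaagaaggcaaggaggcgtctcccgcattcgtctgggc
The Igfbp5 window held 1 match to CANNTG and 0 to GGGCGG, and the Igfbp2 window held 1 and 3. Of all 32851 promoter windows of this length, 72.3% hold CANNTG, 35.7% hold GGGCGG and 13.6% hold TATAAA. Windows were found for all 10 members, 14 in number, since Igf2 has several starts and Igfbp2 a second one.

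The levels of the members were compared per length, as CPM per kb of exon. In WT ventricles Igf2 was highest at 802 ± 36 CPM per kb (SD, n = 4). Igf2r, the receptor that clears IGF2, followed at 249 ± 8.05 CPM per kb (SD, n = 4), while the signalling receptor Igf1r stood at 8.68 ± 0.421 and the other ligand, Igf1, at 6.78 ± 0.346 CPM per kb (SD, n = 4). IGF2 and its clearance receptor thus lay far above the remaining ligand and receptor at the RNA level. Among binding proteins, Igfbp5 was highest at 89.8 ± 3.31 CPM per kb (SD, n = 4). It was followed by Igfbp4 at 55.1 ± 1.94, Igfbp3 at 21.5 ± 2.25, Igfbp7 at 18.1 ± 2.58, Igfbp2 at 9.57 ± 0.421 and Igfbp6 at 1.53 ± 0.272 CPM per kb (SD, n = 4). Neighbours in this order did not overlap between WT libraries, except Igfbp3 and Igfbp7, whose ranges met (19.8 to 24.7 and 14.7 to 20.8 CPM per kb). The order of the means was the same in Nrg-1flox-labelled libraries, where the ranges of Igfbp2 and Igf1r also met. Taking the longest transcript as the length moved single values but left the order as it was.

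**Figure D1:**
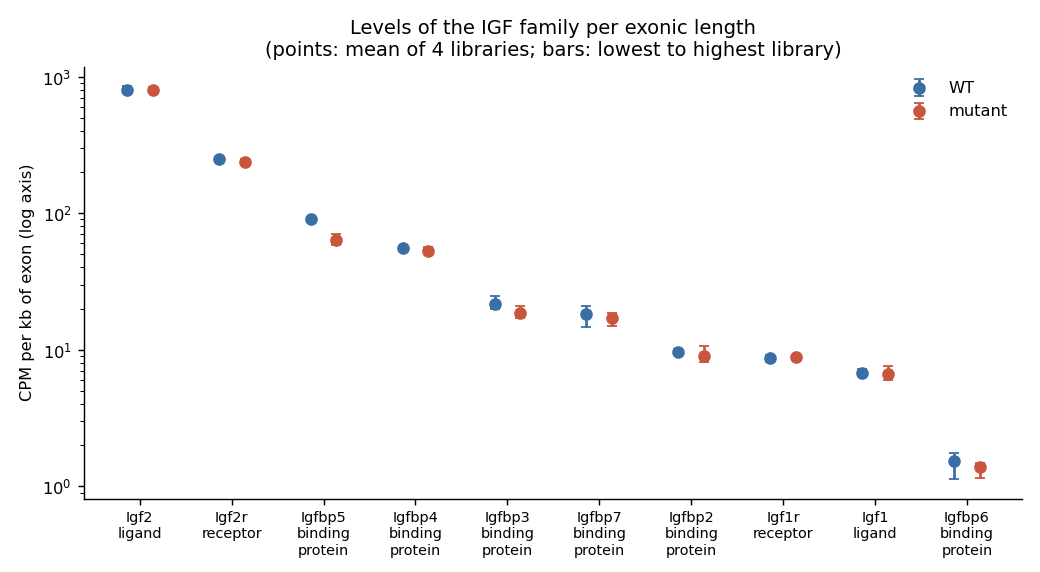
Levels of the 10 IGF family members as CPM per kb of exon (log axis), ordered by their WT level; points are means of 4 libraries and bars run from the lowest to the highest library, blue for WT and red for Nrg-1flox-labelled (mutant in the plot) libraries. Igf2 and Igf2r stood above all binding proteins, and Igfbp5 ranked next in both groups.

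Igfbp5, a binding protein that attaches to extracellular matrix, was at 560, 533, 550 and 515 CPM in libraries 1 to 4 of the WT group. The Nrg-1flox-labelled libraries 1 to 4 held 369, 351, 377 and 420 CPM. The highest Nrg-1flox-labelled library lay well below the lowest WT library, so the groups did not overlap. The means were 539 ± 19.9 and 379 ± 29.6 CPM (SD, n = 4), which puts the Nrg-1flox-labelled level at 70.3% of WT, or a log2 fold change of -0.51 (SE 0.0498). Its counts were whole numbers in every library, from 7143 to 12656, and no gene in GENCODE M21 overlaps it. In the alternative fits its log2 fold change lay between -0.56, when Nrg-1flox-labelled library 4 was left out, and -0.45, when Y-linked RNA entered as a covariate.

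**Figure D2:**
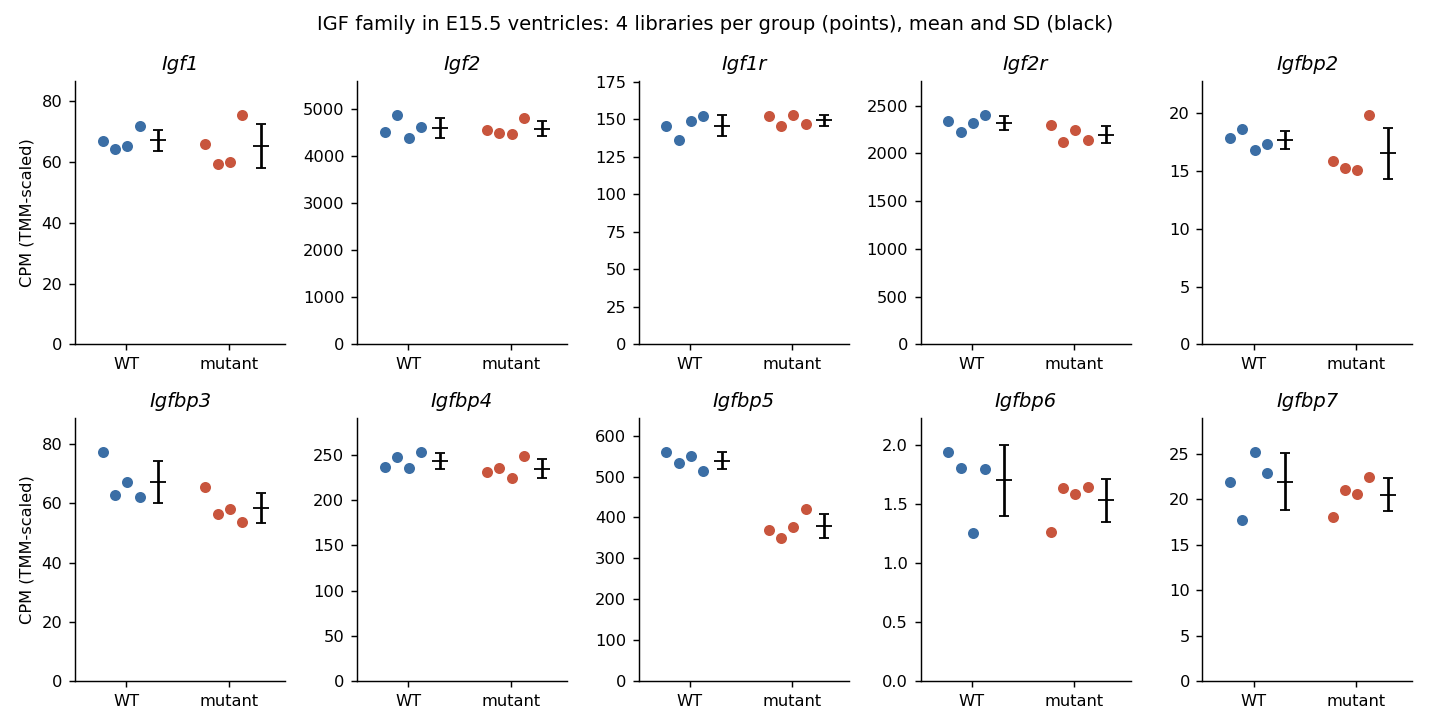
CPM of each IGF family member in 4 WT (blue) and 4 Nrg-1flox-labelled (red, mutant in the plot) libraries, drawn in library order from axes that start at 0; black marks show the mean and SD. Igfbp5 is the panel in which the groups separate, at 515 to 560 against 351 to 420 CPM, while Nrg-1flox-labelled library 4 has the highest Igf1 and Igfbp2 of its group.

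The remaining members did not share a difference of that size. Of the 9 members other than Igfbp5, 0 had an FDR below 0.05 in edgeR, DESeq2 or limma voom. In edgeR 0.526% of the 15388 tested genes had (0.214% lower and 0.312% higher). DESeq2 called 195 and limma voom 57 of the 15388 genes. The groups overlapped in all 9, while they were apart in 6.05% of tested genes (2.98% lower and 3.07% higher). With so few members, counts of 0 are near these shares. For 9 of the 10, Nrg-1flox-labelled levels were lower in the fit, where 50.6% of all tested genes were lower. These 9 include Igfbp5, by which the family was chosen, so the count is a description. The median log2 fold change was -0.088 over the 10 members and -0.077 over the 9 without Igfbp5, against -0.0012 over all tested genes. With Y-linked RNA as a covariate, 6 of 10 were lower, Igfbp5 again among them, and the median of the 10 was -0.021. The smallest adjusted p among the 9 was 0.316, and 2 of the 9, Igfbp3 and Igf2r, had an unadjusted p under 0.05, as had 10.5% of all tested genes. The 95% confidence interval of the log2 fold change held 0 for 7 of the 9, and held the Igfbp5 value of -0.51 for 1 of the 9, Igfbp6, which had the fewest reads.

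**Figure D3:**
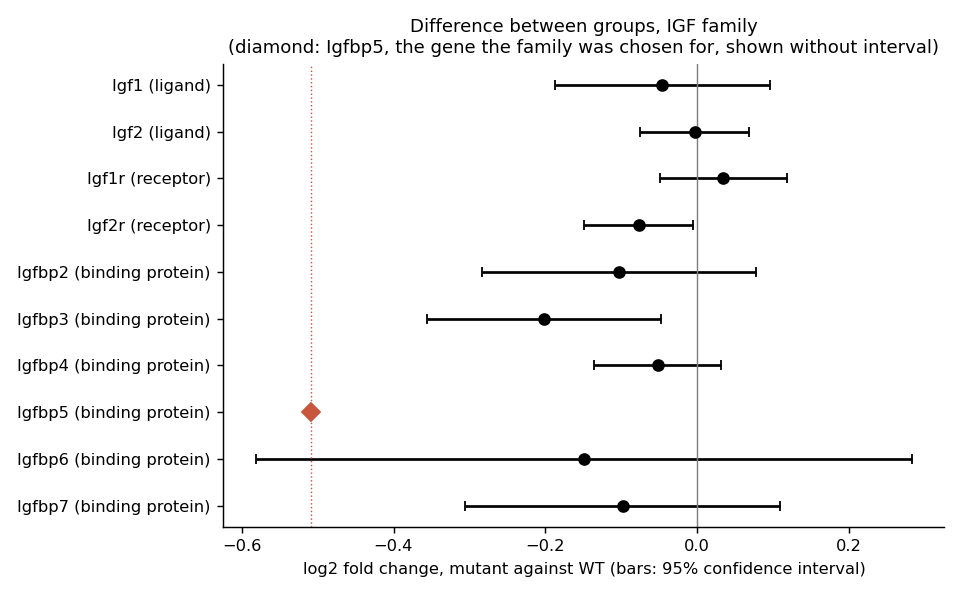
Log2 fold change of each IGF family member, Nrg-1flox-labelled against WT, from the fit across all genes; bars are 95% confidence intervals, and the diamond and dotted line mark Igfbp5, shown without an interval because the family was chosen for it. The interval of Igfbp6 alone reaches the dotted line, and those of Igfbp3 and Igf2r stay below 0.

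Of the ligands, Igf2 was at 4502, 4861, 4378 and 4622 CPM in libraries 1 to 4 of the WT group and at 4556, 4488, 4470 and 4809 CPM in the Nrg-1flox-labelled libraries. The range of the second group lay within that of WT. The log2 fold change was -0.0032 (95% confidence interval -0.08 to 0.07, adjusted p = 0.99), so that even the ends of the interval are small beside the Igfbp5 value. Igf2 ranked above 99.9% of tested genes in expression level (log2 CPM). Igf2 (chromosome 7, 142650766 to 142666816) shares 3596 exonic bases with Gm49394, a protein-coding model on the same strand, and its counts were not whole in 87.5% of the libraries. Gm49394 was given 0 to 49 expected counts in WT and 70.8 to 121 in Nrg-1flox-labelled libraries, against 81698 to 110085 for Igf2. The sum of these genes was 4592 ± 205 CPM in the WT group and 4586 ± 158 CPM in Nrg-1flox-labelled libraries (SD, n = 4), so the division of their reads made little difference to Igf2.

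Igf1 was at 66.8, 64.3, 65.4 and 72 CPM in the WT group and 66.1, 59.5, 60.1 and 75.4 CPM in Nrg-1flox-labelled libraries 1 to 4. Its range was wider in the latter group, whose libraries held both the lowest and the highest value. The log2 fold change was -0.05 (95% confidence interval -0.19 to 0.10, adjusted p = 0.877). It turned to 0.096 with Y-linked RNA as a covariate and lay at -0.12 without Nrg-1flox-labelled library 4.

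Igf1r, the signalling receptor, was at 146, 136, 149 and 152 CPM in the WT group and 152, 146, 153 and 147 CPM in Nrg-1flox-labelled libraries 1 to 4. The groups overlapped, with a log2 fold change of 0.03 (95% confidence interval -0.05 to 0.12, adjusted p = 0.823). Igf2r was at 2342, 2220, 2314 and 2399 CPM in the WT group and 2298, 2116, 2242 and 2136 CPM in Nrg-1flox-labelled libraries 1 to 4. Of the Nrg-1flox-labelled libraries, 2 and 4 lay below the lowest WT library and 1 and 3 within the WT range. The log2 fold change was -0.08 (95% confidence interval -0.15 to -0.01), which did not pass over all genes (adjusted p = 0.434). Igf2r overlaps the antisense RNA Airn without shared exonic bases, and Airn was at 23.9 ± 0.828 and 23.4 ± 2.92 CPM (SD, n = 4).

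Of the binding proteins other than Igfbp5, Igfbp3 showed the largest difference. IGFBP3 is the main carrier of IGFs in the blood after birth. It was at 77.4, 62.8, 67.1 and 62.1 CPM in the WT group and 65.5, 56.5, 58.2 and 53.8 CPM in Nrg-1flox-labelled libraries 1 to 4. In each group library 1 was highest and library 4 lowest, and Nrg-1flox-labelled library 1 alone lay within the WT range. The means were 67.4 ± 7.04 and 58.5 ± 5.02 CPM (SD, n = 4). This is a log2 fold change of -0.20, with SE 0.0711 (95% confidence interval -0.36 to -0.05), which did not pass over all genes (adjusted p = 0.316). Over its 17 alternatives the adjusted p ranged from 0.0195, without a filter on low counts, to 0.539. With a block for the replicate number it was 0.0285, the other alternative below 0.05. In that fit without a filter, 338 of 29350 genes passed, against 81 of 15388 here. Without WT library 1 the log2 fold change was -0.13, the smallest of the alternatives.

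Igfbp4, a binding protein cut by the protease PAPPA, was at 237, 248, 236 and 253 CPM in the WT group and 231, 236, 224 and 249 CPM in Nrg-1flox-labelled libraries 1 to 4. Its spread was narrow in both groups, and the log2 fold change was -0.05 (95% confidence interval -0.14 to 0.03, adjusted p = 0.704). Its counts were not whole in any library, which happens where reads also match another place in the annotation. Igfbp4 was thus the second binding protein by level and did not show a difference of the Igfbp5 size.

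Igfbp2, next to Igfbp5 on the chromosome, was at 17.9, 18.6, 16.8 and 17.4 CPM in the WT group and 15.9, 15.3, 15.1 and 19.8 CPM in Nrg-1flox-labelled libraries 1 to 4. Nrg-1flox-labelled libraries 1 to 3 lay below each WT library and library 4 above each of them. The log2 fold change was -0.10 (95% confidence interval -0.28 to 0.08, adjusted p = 0.732), and -0.20 without Nrg-1flox-labelled library 4 (adjusted p = 0.201). Library 4 thus decided the size of the Igfbp2 value.

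Igfbp7 was at 21.9, 17.8, 25.2 and 22.9 CPM in the WT group and 18, 21.1, 20.6 and 22.4 CPM in Nrg-1flox-labelled libraries 1 to 4, with a log2 fold change of -0.10 (95% confidence interval -0.31 to 0.11, adjusted p = 0.798). Igfbp6, which binds IGF2 in preference to IGF1, was at 1.94, 1.81, 1.26 and 1.8 CPM in the WT group and 1.26, 1.64, 1.59 and 1.65 CPM in Nrg-1flox-labelled libraries 1 to 4. It rested on 25 to 42 counts per library, and its log2 fold change of -0.15 had a wide interval (-0.58 to 0.28, adjusted p = 0.868). That interval holds both 0 and the Igfbp5 value, so whether Igfbp6 differed was undetermined.

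Set together per length, the binding proteins summed to 201, 191, 198 and 193 CPM per kb in WT and 159, 157, 159 and 174 CPM per kb in Nrg-1flox-labelled libraries 1 to 4. Without Igfbp5 the sums were 108, 103, 106 and 107 against 97.9, 98.6, 96.1 and 104 CPM per kb. Igfbp5 made up 45.9 ± 0.958% of the sum in WT and 38.9 ± 1.3% in Nrg-1flox-labelled libraries (SD, n = 4). The share of Igfbp4 was 28.2 ± 1.57% and 32.8 ± 0.884% (SD, n = 4). As shares are parts of the same sum, a lower Igfbp5 raises the others. Igfbp4 itself was at 55.1 ± 1.94 and 53.2 ± 2.34 CPM per kb (SD, n = 4). These sums and shares contain Igfbp5 or the same comparison and are given as descriptions.

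Nrg-1flox-labelled library 4 had the highest value of its group for 7 of the 10 members, Igfbp5 among them (420 CPM), and the lowest for Igfbp3 (53.8 CPM). The part of its depth or of its sex-linked RNA in these values was not tested. Without it, 9 of 10 members were lower, Igfbp5 among them, and the median log2 fold change of the 10 was -0.129.

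**Figure D4:**
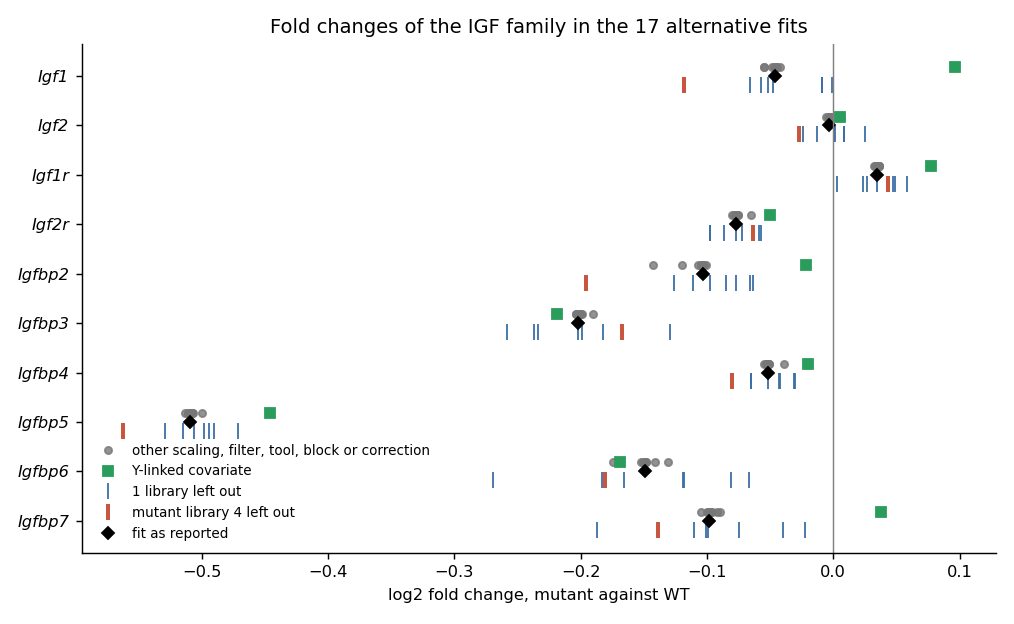
Log2 fold change of each member, Nrg-1flox-labelled against WT, in the fit as reported (black diamond) and in 17 alternative fits: 1 library left out (ticks, red for Nrg-1flox-labelled library 4), the Y-linked covariate (green square) and other settings (grey). Igfbp5 stayed between -0.56 and -0.45, while Igf1, Igf2 and Igfbp7 lie across 0 with the covariate.

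The neighbourhood of Igfbp5 was examined next, as the protein-coding genes within 500 kb. Besides Igfbp2, those tested were Rpl37a, a ribosomal protein gene (log2 fold change 0.01, adjusted p = 0.97), Smarcal1, a DNA annealing helicase (-0.0006, adjusted p = 0.998), and Xrcc5, a DNA repair gene (0.0089, adjusted p = 0.982). Each differed by less than its standard error. Of the remaining neighbours, March4 held at most 2 counts in a library, and Ankar and Tnp1 were at 0 in all 8.

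The genes whose profile over the 8 libraries was most like that of Igfbp5 were then sought among 6062 genes with a mean log2 CPM of at least 5. Likeness was the root mean square difference of the log2 CPM profiles, each centred on its own mean. The nearest were Ednrb (0.0775), the endothelin receptor B, Clu (0.111), a secreted chaperone, and Aplnr (0.115), the apelin receptor. Etv1 (0.119), an ETS transcription factor of trabecular myocardium, and Thbs4 (0.13), a matrix glycoprotein, followed. Since the profile of Igfbp5 holds its group difference, likeness to it favours genes that differ the same way. The log2 fold changes were -0.46 for Ednrb, -0.35 for Clu, -0.31 for Aplnr, -0.32 for Etv1 and -0.56 for Thbs4. Ednrb was at 106, 106, 98.1 and 93.8 CPM in the WT group and 74, 73.3, 68.1 and 77.7 CPM in Nrg-1flox-labelled libraries 1 to 4. Of the family, Igfbp3 came closest by this measure, at 0.207.

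In the wider list of IGF pathway genes, which leaves out the family, no gene passed the test. None of the 39 tested of 43 listed had an FDR below 0.05 in edgeR, DESeq2 or limma voom. Of all tested genes, 0.526% had in edgeR, 195 of 15388 in DESeq2 and 57 of 15388 in limma voom. Of the 39, 6 had an unadjusted p under 0.05 in edgeR, where 10.5% of all tested genes had. For 4 of the 39 the libraries of both groups were fully separate, as they were for 6.05% of tested genes. Both counts lie near these shares. Pappa, H19, Insr and Foxo1 lay outside the rule for named genes and were chosen after their values were seen. Of the 39, 19 were lower and 20 higher, with a median log2 fold change of 0.011 and a range from -0.19 to 0.22.

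Among 7 proteases of binding proteins and their inhibitors, 5 were lower and 2 higher. Htra1, a serine protease that can cut IGFBP5, was at 46.3 ± 2.28 and 41.7 ± 4.99 CPM (SD, n = 4; log2 fold change -0.16, adjusted p = 0.445). It lay at -0.24 without Nrg-1flox-labelled library 4 and -0.008 with the Y-linked covariate. Pappa, which cuts IGFBP4 and IGFBP5, was at 4.86 ± 0.471 and 4.77 ± 0.862 CPM (SD, n = 4; adjusted p = 0.967). Of the 6 RNA regulators and imprinted partners of Igf2, Igf2bp3, an RNA-binding protein, had the smallest p: its groups did not overlap, at 69 to 71.8 CPM in the WT group and 60.5 to 68.4 CPM in Nrg-1flox-labelled libraries (log2 fold change -0.13, adjusted p = 0.206). H19, the imprinted RNA beside Igf2, was at 8366 ± 356 and 8635 ± 246 CPM (SD, n = 4; adjusted p = 0.649).

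Of 9 tested receptor adaptors, 3 were lower and 6 higher. Gab1, a docking protein, had the smallest p, at 154 ± 3.17 and 163 ± 3.88 CPM (SD, n = 4; log2 fold change 0.09, adjusted p = 0.324). Of 12 genes of the PI3K, AKT and FOXO step, 6 were lower and 6 higher. Pik3r2, a regulatory subunit of PI3K, was at 51.2 ± 0.553 and 55 ± 1.98 CPM (SD, n = 4; log2 fold change 0.10, adjusted p = 0.271). Foxo1, a transcription factor that IGF signalling keeps out of the nucleus, had a log2 fold change of -0.14 (adjusted p = 0.298). Without Nrg-1flox-labelled library 4 it was -0.19 (adjusted p = 0.0499), in a fit that called 142 of 15593 genes, against 81 of 15388 here. Cd93, an endothelial binding partner of IGFBP7, was at 264 ± 7.11 and 249 ± 9.12 CPM (SD, n = 4; log2 fold change -0.08, adjusted p = 0.419). Of the relatives outside the family, 2 of 5 were tested: the insulin receptor Insr (0.05, adjusted p = 0.704) and Igfbpl1 (0.15, adjusted p = 0.535).

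**Figure D5:**
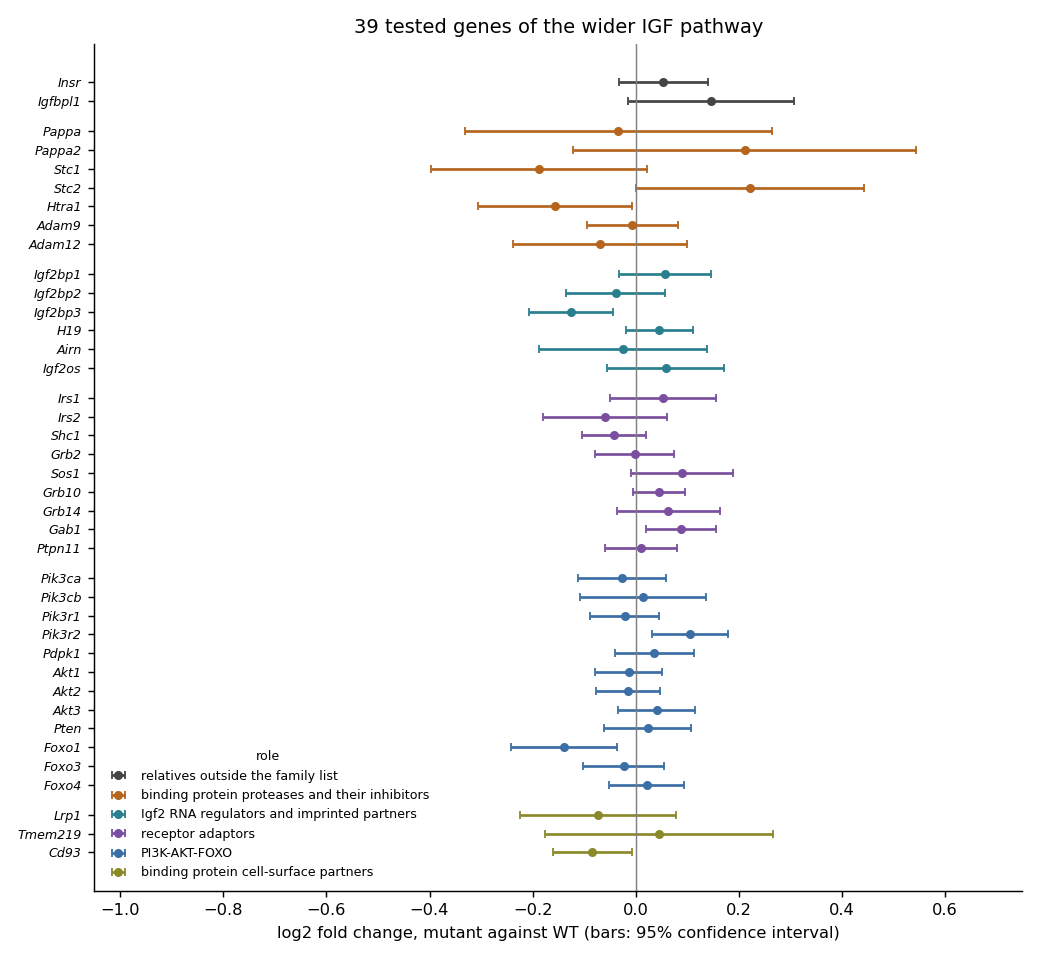
Log2 fold change, Nrg-1flox-labelled against WT, of the 39 tested genes of the wider IGF pathway, coloured by role; bars are 95% confidence intervals. The values run from -0.19 to 0.22, on both sides of 0 in each role with more than 2 tested genes.

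Since these are whole ventricles, fewer cells of a type and less RNA per cell cannot be told apart in any of these values. Marker lists of the cell types present are therefore given beside the Igfbp5 level of 70.3% of WT. The endothelial markers were lower in 8 of 10, and their sum was at 1490 to 1560 CPM in the WT group and 1390 to 1520 CPM in Nrg-1flox-labelled libraries, 96.2% of WT. Kdr (89% of WT), Tie1 (89.3%) and Esam (89.8%) did not overlap between the groups (adjusted p = 0.0693, 0.121 and 0.0584). Such a separation with lower values was found in 2.98% of tested genes. Cdh5 (101%) and Emcn (113%) were higher. The trabecular markers were lower in 6 of 7, and their sum was at 2110 to 3040 and 1920 to 2760 CPM, 87.3% of WT. Most of that sum was Nppa (1992 and 1766 CPM, 88.7% of WT). Bmp10 was at 68.8% and Slit2 at 67.8% of WT (adjusted p = 0.0606 and 0.072), near the Igfbp5 level, and Etv1 was at 80.3%. Unlike for Igfbp5, the groups overlapped for Bmp10 and Slit2. In Nrg-1flox-labelled library 4 these were at 95.5 and 128 CPM, above the lowest WT library (93.8 and 126 CPM). Of the 7, Etv1 passed (adjusted p = 0.0373, where 0.214% of tested genes were called lower). Calls depended on the fit: with the Y-linked covariate 16 genes were called, 12 of them shared with the 81 here. Etv1 and Nkx2-5, given below, were not followed through the alternative fits. The ventricular cardiomyocyte markers were lower in 4 of 10 and higher in 6 of 10, with a sum at 101% of WT. Of these, Nkx2-5, a cardiac transcription factor, rose to 116% of WT (adjusted p = 0.0194, where 0.312% of tested genes were called higher). Hey2, a transcription factor of compact myocardium, was at 107% (adjusted p = 0.356). Its groups were barely apart, at 149.6 to 160.6 CPM in WT and 160.7 to 170.9 CPM in Nrg-1flox-labelled libraries. Of all tested genes 3.07% were apart and higher. Atrial markers were lower in 7 of 7 and their sum was at 97.3% of WT (1580 to 1800 and 1580 to 1740 CPM). Fibroblast markers were lower in 6 of 9, with a sum at 98.5% of WT (6720 to 7880 and 6670 to 7770 CPM). Mural markers were lower in 6 of 7, while their sum was at 104% of WT (1660 to 1760 and 1730 to 1830 CPM). Most of that sum was Acta2 (1308 and 1423 CPM, 109% of WT), the marker that was higher. Epicardial markers were higher in 7 of 7, with a sum at 107% (162 to 173 and 171 to 193 CPM). Macrophage markers were higher in 7 of 8 (sum at 105%, 115 to 156 and 123 to 181 CPM), and erythroid markers in 7 of 8 (sum at 108%, 4290 to 9400 and 5880 to 10000 CPM). The sums of each list overlapped between the groups. The part of these cell types in the Igfbp5 difference was not tested.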

How the data were processed

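The deposited values are expected counts from RSEM, made by the authors for each Ensembl gene, in which a read is divided between the genes it matches. Libraries were directional, from polyadenylated RNA, and read from a single end per the labels. The submitters' processing notes name cutadapt, RSEM 1.3.1 and build GRCm38. The aligner and the strand setting of the counting are not given in the sources used here. Of the deposited values 18.1% were not whole.

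Counts were rounded. GENCODE M21 (GRCm38) matched 53360 of 53465 identifiers. After filterByExpr, 15388 genes were scaled with TMM and compared in R 4.3.3 with the two-sided quasi-likelihood test of edgeR 4.0.16 (glmQLFit, glmQLFTest), with group as the only term. P-values were adjusted by Benjamini-Hochberg over every tested gene, with a threshold of 0.05 (FDR). Intervals are 95% confidence intervals. As nothing ties libraries to separate litters, p-values measure the spread between these libraries. The fits were tested on simulated data.

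Named were all members, Nrg1, pathway genes with FDR below 0.05 or the smallest p of their role, genes within 500 kb of Igfbp5 and the 5 most like it. Members and lists were chosen with earlier results of these data known. Libraries of the same number were not treated as pairs. Alternatives were RLE and total scaling, other filters, DESeq2 1.42.0, limma 3.58.1 (voom), leaving out each library, a replicate block, a Y-linked covariate (summed Ddx3y, Uty, Eif2s3y and Kdm5d), a GC and length correction and FDR 0.01 and 0.1. Promoters came from RefSeq.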

Additional observations from a re-analysis of the deposited data

Results flagged for a closer look

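Among 40 groups of 4 values (20 named genes in each group), 3 had an extreme value set apart from the rest, and chance alone would give about 1 in 20 groups. For Igfbp2, Nrg-1flox-labelled library 4 stood at 19.8 CPM and libraries 1 to 3 between 15.1 and 15.9 CPM. For Igfbp6, Nrg-1flox-labelled library 1 stood at 1.26 CPM, or 25 counts, and libraries 2 to 4 between 1.59 and 1.65 CPM. For Xrcc5, near Igfbp5, library 4 of this group stood at 19.2 CPM and libraries 1 to 3 between 21.6 and 22 CPM. The cause was not tested for any of these.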

How the results depend on the processing

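The members called lower numbered 2 in place of 1, Igfbp3 beside Igfbp5, without a filter on low counts, where 338 of 29350 genes were called, and with the replicate block (Igfbp3 adjusted p = 0.0285), where 93 of 15388 were called. In the fit as reported 81 of 15388 were called, and 59 of these were shared with the block. Same-numbered libraries deviated together with r of 0.0482 to 0.119 across genes and differently numbered ones with r of -0.0983 to 0.0334, so every library correlated best with its own number. The lowest same-numbered r was thus above the highest differently numbered r. As no label ties the numbers, this is a hint from the data, and the fit as reported did not pair the libraries. The cause of these shifts was not tested. Leaving out 1 library at a time gave 1 member called lower in each fit, Igfbp5, which the family was chosen by and which therefore supports nothing, and 0 to 1 pathway genes called lower. Over all tested genes, these fits called 11 to 142. The added pathway gene was Foxo1, in the fit without Nrg-1flox-labelled library 4, which called the most (142 of 15593). No member or pathway gene was called higher in any alternative.

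With the Y-linked covariate the log2 fold change crossed 0 for Igf1 (0.096), Igf2 (0.0051), Igfbp7 (0.038), Smarcal1 (0.0196) and Rpl37a (-0.054). The GC and length correction turned Igf2 (0.0059) and Smarcal1 (0.011). RLE scaling (0.000598) and DESeq2 (0.00063) turned Smarcal1. With 1 library left out, Igf2 ranged from -0.027 to 0.025, Xrcc5 from -0.022 to 0.051, Smarcal1 from -0.037 to 0.032 and Rpl37a from -0.019 to 0.048. Igfbp5 ranged from -0.56 to -0.47 in these fits and Igfbp3 from -0.26 to -0.13. Depth limits Igfbp6 most, at 25 to 42 counts per library.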
